A study of Homo sapiens with 15 samples.

Results

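Most of the 33 genes described here carry amino acids into the cell, make serine, or pass carbon units from serine and glycine to folate. The others are enzymes of transsulfuration and of glutamate, aspartate, proline and asparagine, and regulators and targets of the amino acid response. All were chosen by hand for their roles in these pathways, with earlier results of these data known. All 33 had a row among the 17272 genes of the deposited expression table. They were compared in LNCaP, a line of human prostate cancer cells whose growth depends on androgen and its receptor. One group was 10 libraries of cells given 1 nM R1881, a synthetic androgen, with DMSO. The other was 5 libraries of cells given 1 nM R1881 and 2 µM enzalutamide, an antagonist of the androgen receptor. Both groups had been starved of androgen for 2 days in medium with charcoal-stripped serum and were collected after 22 h. No group without R1881 was analysed here, so the values show how enzalutamide changed an androgen-treated cell, not what R1881 did. The study's methods call the libraries biological replicates but do not say whether they came from separate cultures, and p-values measure only the spread between these libraries.

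Serine is made from a glycolytic intermediate in 3 steps and is the main donor of single carbon units to folate, which carries them to purines, thymidylate and methionine. Amino acids that are not made in sufficient amount enter through solute carriers. Several of these are pairs of a heavy chain, SLC3A2, and a light chain that does the transport. Many of these genes are known targets of ATF4, a transcription factor whose translation rises when amino acids are short. In the prostate, androgen is a known regulator of amino acid and glutamine uptake.

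The R1881 libraries held 15830745 to 24316740 counted reads each, and the R1881 + enzalutamide libraries 21188661 to 25416052. The androgen-induced kallikrein gene KLK2 fell from 463 ± 69.2 CPM (mean ± SD, n = 10) to 15.2 ± 1.48 CPM (n = 5), where CPM is the deposited signal, in counts scaled to about 1000000 per library. The protease gene TMPRSS2 fell from 850 ± 51.2 to 71.5 ± 2.61 CPM. Neither overlapped between the treatments (two-sided exact permutation test over 3003 regroupings, p = 0.000333 for each, the smallest it can give). Of the luminal prostate markers 10 of 10 had a row, against 1 of 4 basal markers (KRT14), 3 of 6 stromal markers and 1 of 7 immune and endothelial markers. The summed level of the stromal markers, COL1A1, COL3A1 and LUM, rose from between 6.36 and 10.5 CPM to between 21.2 and 26.7 CPM, and the part of this in the results was not tested. R1881 replicates 5 and 6 and R1881 + enzalutamide replicate 2 lay furthest from their groups. For this measure a group is a series of library numbers, described next, and the distance is from its median. The R1881 libraries carry the numbers 51 to 55 or 71 to 75 in the column names, and the enzalutamide libraries 81 to 85. The sources used here do not say what these numbers stand for. No series holds both treatments, so a difference of libraries 81 to 85 from the others cannot be told apart from the effect of enzalutamide. Values against each R1881 series are therefore given for some genes, and a gene without them can differ between the series too. KLK2 had a mean of 398 CPM in libraries 51 to 55 and 527 CPM in libraries 71 to 75. TMPRSS2 had 803 and 898 CPM. The log2 fold change of SLC38A2 was -0.54 against libraries 51 to 55 and -0.39 against libraries 71 to 75. The plot of log2 fold changes with 95% intervals shows both values for each tested gene of the set.

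Most of the 33 genes were lower with enzalutamide. Of the 32 genes with a mean of at least 0.5 CPM, 20 were lower, 4 were higher and 8 were not called (limma on log2(CPM + 0.5), adjusted p under 0.05). Over all 17046 genes tested, 62.5% were called, 32.7% lower and 29.8% higher. The treatments did not overlap for 16 of the genes lower and 2 of those higher, where the shares over all genes were 20.1% and 17.1%, or 37.2% in either direction. The median log2 fold change was -0.29 over the 32 genes and -0.01 over all genes. Most changes were modest, since only SLC43A1, GLUD1 and SLC1A5 were lower by at least 2-fold and only SLC7A5 was higher by that much (4.19% and 3.26% of all genes, 7.45% together). When library totals were all set to 1000000, which moved the split over all genes from 5577 lower and 5083 higher to 4288 lower and 6641 higher, 18 members were lower and 7 higher. In a culture, less RNA of a gene per cell and fewer of the cells that express it cannot be told apart.

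**Figure D1:**
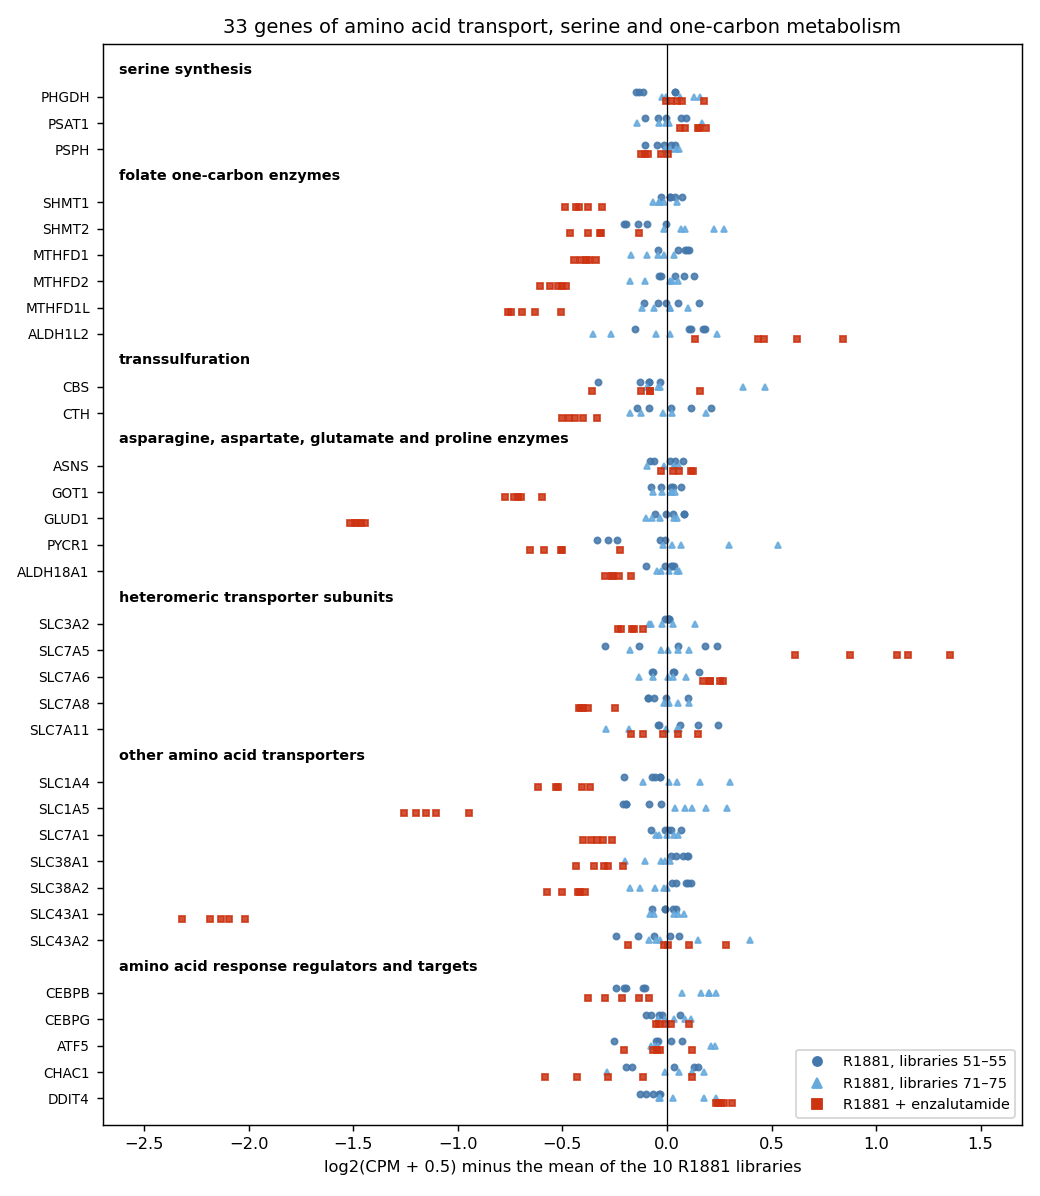
Each point is a library, as log2(CPM + 0.5) minus the mean of the 10 R1881 libraries, for the 33 genes grouped by role. Circles and triangles are the R1881 series and squares the R1881 + enzalutamide libraries. SLC43A1, GLUD1 and SLC1A5 lie furthest to the left and SLC7A5 furthest to the right, while the serine synthesis genes stay close to 0.

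The region around the transcription start of these genes was searched for the element of ATF4 and its C/EBP partners (TGATGNAA). The E-box (CACGTG), the site of MYC and of TFE factors, was searched for too. Both strands were read. RefSeq promoters on GRCh38.p14, from 250 bases before to 50 bases after each start, were found for 28 of the 33 genes, with several starts for some. TGATGNAA was in 10 of the 28 (35.7%), against 4.46% of 27305 genes, and CACGTG in 7 of 28 (25%), against 8.77%. The set was chosen by hand and holds known targets of ATF4. An excess of its element is therefore built into the choice and tells nothing about the change with enzalutamide. Both motifs were found for MTHFD1L and SLC1A5. In MTHFD1L the element and the E-box lay 129 and 154 bases before the same start. In SLC1A5 they lay before different starts, with the E-box at chr19:46787326-46787355, so they do not share a promoter. Several elements lay inside the gene as annotated by GENCODE. Those of SLC1A5 and SLC38A1 were among them, with gene starts at chr19:46788594 and chr12:46270017. The sequences below show the element in the best known ATF4 target, ASNS, in a regulator of the response, CEBPG, and in 2 transporters, followed by the E-box of the genes with the largest fall and the largest rise. Capitals mark the motif, and each is read 5′ to 3′ on the strand named.
ASNS (chr7:97872458-97872487, minus strand): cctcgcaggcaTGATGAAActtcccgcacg
CEBPG (chr19:33374060-33374089, plus strand): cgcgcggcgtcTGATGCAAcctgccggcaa
SLC1A5 (chr19:46784893-46784922, minus strand): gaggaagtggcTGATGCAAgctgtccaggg
SLC38A1 (chr12:46266502-46266531, minus strand): tcagacccgaaTGATGAAAagggatcagct
SLC43A1 (chr11:57515797-57515826, minus strand): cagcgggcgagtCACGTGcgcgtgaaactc
SLC7A5 (chr16:87869620-87869649, minus strand): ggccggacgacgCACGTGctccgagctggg

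Of the 10 genes with TGATGNAA, 8 were lower with enzalutamide, none was higher, and ASNS and CEBPG were not called. CHAC1, among the 8, passed the threshold narrowly. Of the 7 with CACGTG, 6 were lower and 1, SLC7A5, was higher. The 13 matched genes with neither motif held 6 lower, 3 higher and 4 not called. Of all 32 members tested 62.5% were lower and 12.5% higher, against 32.7% and 29.8% of all genes. Calls among all genes that carry a motif were not counted, so no conclusion about the motifs is drawn. A match is a run of letters and does not show that a factor binds there.

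Serine synthesis changed little. PHGDH, the enzyme that draws carbon from glycolysis into serine, lay between 223 and 276 CPM with R1881 (median 250) and at 251, 280, 260, 246 and 255 CPM in R1881 + enzalutamide replicates 1 to 5. The groups overlapped, and the difference was 0.06 on the log2 scale (95% interval -0.04 to 0.16, adjusted p = 0.27). PSAT1, the transaminase of the second step, lay between 175 and 217 CPM with R1881 (median 193). The enzalutamide libraries had 215, 202, 220, 215 and 205 CPM. It rose by 0.13 (SE 0.04, adjusted p = 0.014), with overlapping groups. The phosphatase PSPH was at 50.3 ± 1.63 CPM and 47.9 ± 1.87 CPM, a difference of -0.07 (-0.15 to 0.01, adjusted p = 0.10). None of the 3 genes was lower. The call for PHGDH depended on the R1881 libraries used, since it rose by 0.13 against libraries 51 to 55 (adjusted p = 0.022) and differed by -0.0024 from libraries 71 to 75.

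The tested enzymes of the set that move carbon from serine to folate all fell. SHMT1 and SHMT2 split serine into glycine and a folate-bound carbon in cytosol and mitochondria, and MTHFD1, MTHFD2 and MTHFD1L oxidise, hydrolyse and release that carbon. Each of the 5 tested was called lower. MTHFD2 (chr2:74186172-74217565), the mitochondrial dehydrogenase, lay between 109 and 135 CPM with R1881 (median 125). With enzalutamide it had 85.7, 80.6, 83.2, 87.9 and 86.8 CPM. All 5 libraries lay below each R1881 library, and the log2 fold change was -0.54 (SE 0.04, adjusted p = 8.18e-10). MTHFD1L (chr6:150865679-151101887), which releases formate from mitochondria, lay between 18.5 and 22.5 CPM with R1881 (median 20.2) and at 11.8, 12.2, 14.0, 12.8 and 11.7 CPM with enzalutamide. Its fall of 0.67 on the log2 scale (SE 0.06, adjusted p = 1.71e-09) was the largest of the 5 fitted values. The cytosolic MTHFD1 fell by 0.39, from 191 ± 11.9 to 145 ± 4.02 CPM (adjusted p = 6.41e-08).

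SHMT1 was at 93.8 ± 2.92 CPM with R1881 and 70.7 ± 3.30 CPM with enzalutamide, a log2 fold change of -0.41 without overlap (adjusted p = 1.98e-09). SHMT2 fell from 277 ± 32.5 to 221 ± 18.8 CPM (-0.32, adjusted p = 0.00054), and its groups overlapped. It was highest in R1881 replicates 5 and 6 and in R1881 + enzalutamide replicate 2, and its fall was 0.31 without those 3 libraries. The difference was -0.19 against libraries 51 to 55 and -0.45 against libraries 71 to 75. ALDH1L2, which oxidises formyl-folate in mitochondria, was too low for the test, with 4 to 12 reads per R1881 library and 10 to 27 per enzalutamide library. Its mean was 0.377 ± 0.118 CPM and 0.745 ± 0.223 CPM, and with no filter on low values it rose by 0.50 (adjusted p = 0.0018).

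At the level of RNA, the mitochondrial MTHFD1L and MTHFD2 fell relative to the cytosolic MTHFD1. The log2 ratio of MTHFD1L to MTHFD1 within a library was -3.21 ± 0.13 with R1881 and -3.49 ± 0.09 with enzalutamide. That of MTHFD2 to MTHFD1 was -0.63 ± 0.08 and -0.77 ± 0.04. Both ratios fell with overlapping groups, by 0.28 and by 0.14 (two-sided exact permutation test, p = 0.0017 and 0.0030, adjusted over 12 pairs 0.0033 and 0.0051). The related gene MTHFD2L, outside the set, rose by 0.20, from 29.8 ± 2.13 to 34.4 ± 1.84 CPM (limma, adjusted p = 0.0027). No ratio was computed for MTHFD2L. The ratio of SHMT2 to SHMT1 was 1.55 ± 0.17 and 1.63 ± 0.08, and no difference was detected (exact permutation test, p = 0.32, adjusted 0.35). Library scaling enters these ratios only through the pseudocount of 0.5 CPM, which weighs most for low genes such as SLC7A5.

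Other genes of the folate pathway moved in both directions. Among 23 further genes of the folate, glycine and methionine cycles, 13 were lower, 6 higher and 4 not called, with a median of -0.18 (56.5% lower and 26.1% higher, against 32.7% and 29.8% of all genes). TYMS, which makes thymidylate, fell from 88.0 ± 8.42 to 45.2 ± 3.11 CPM (-0.95, adjusted p = 2.46e-11). The folate carriers SLC19A1, of the cell surface, and SLC25A32, of the mitochondrion, each fell by 0.63, while the other cell-surface carrier SLC46A1 rose by 0.14 (adjusted p = 0.0037). GNMT, which uses glycine to consume methyl groups, had the largest fall of the list, from 46.6 ± 3.42 to 5.18 ± 0.343 CPM (-3.05, adjusted p = 1.25e-20). In the glycine cleavage system, GLDC rose by 0.61, from 7.34 ± 0.925 CPM, and AMT by 0.78, from only 1.52 ± 0.365 CPM. The more abundant GCSH fell by 0.33, from 119 ± 6.69 to 94.9 ± 6.68 CPM (adjusted p = 2.64e-06). Of the sideroflexins, a family of mitochondrial serine carriers, SFXN3 rose by 0.31 and the more abundant SFXN1 fell by 0.23, from 135 ± 4.99 to 115 ± 4.85 CPM (adjusted p = 7.85e-06). Genes of S phase, when DNA is copied, were also examined. All 14 of a hand-written list were lower (median -0.93), against 32.7% of all genes. Their summed level fell from between 1279 and 1454 CPM to between 673 and 731 CPM. The part of this in the fall of the folate enzymes was not tested.

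In transsulfuration, which makes cysteine from homocysteine and serine, 1 of the 2 enzymes was called. The difference between them was not tested. CTH, which releases cysteine, fell from 8.14 ± 0.824 to 5.89 ± 0.289 CPM without overlap (-0.43, adjusted p = 3.00e-05). CBS, which joins serine to homocysteine, was at 153 ± 27.2 and 142 ± 18.1 CPM (-0.10, 95% interval -0.31 to 0.11, adjusted p = 0.41). CBS had its highest values in the 3 libraries furthest from their groups. Its near-identical copy CBSL was listed at 144 ± 26.1 and 133 ± 17.3 CPM, so that reads of the pair were not separated with certainty.

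Among the enzymes of glutamate, aspartate, proline and asparagine, GLUD1 stood out. GLUD1 (chr10:87050202-87094843, minus strand) encodes mitochondrial glutamate dehydrogenase, which joins glutamate to the citric acid cycle. With R1881 it lay between 567 and 644 CPM (median 614), and with enzalutamide at 224, 212, 218, 220 and 216 CPM. The groups were far apart, and the enzalutamide libraries were close to each other. The mean fell by 64.2% (log2 fold change -1.48, SE 0.03, adjusted p = 2.44e-19), rank 350 from the lowest of 17046 genes. Per kilobase of transcript GLUD1 had the highest level of the 33 genes with R1881, 185 ± 8.24 CPM per kb, and was 5th with enzalutamide, at 66.1 ± 1.29 CPM per kb. The intronless copy GLUD2 fell by 1.51, from 150 ± 7.27 to 52.3 ± 1.66 CPM, and reads of 50 bases from either gene can be assigned to the other.

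GOT1, the cytosolic aspartate aminotransferase, fell from a range of 113 to 125 CPM (median 121) to 78.6, 73.4, 72.4, 69.3 and 71.6 CPM. The groups did not overlap (-0.70, SE 0.03, adjusted p = 1.92e-13). Its mitochondrial partner GOT2 fell by 0.54 (adjusted p = 5.10e-12). In proline synthesis, ALDH18A1, which starts the path from glutamate, fell by 0.24, from 186 ± 6.16 to 157 ± 5.12 CPM (adjusted p = 9.72e-07). PYCR1, which completes it, fell from 161 ± 31.3 to 113 ± 13.4 CPM (-0.50, adjusted p = 0.00046) with overlap. PYCR1 lay at 195 and 229 CPM in R1881 replicates 5 and 6 and at no more than 166 CPM in the other R1881 libraries. Without the 3 libraries furthest from their groups it fell by 0.46. Its difference was -0.32 against libraries 51 to 55 and -0.68 against libraries 71 to 75. The ratio of PYCR1 to ALDH18A1 differed by -0.25 (exact permutation test, p = 0.089, adjusted 0.12).

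ASNS, which makes asparagine from aspartate and glutamine, was the exception in this group. It lay between 108 and 122 CPM with R1881 (median 117) and at 125, 113, 126, 120 and 118 CPM with enzalutamide. The groups overlapped, with a difference of 0.06 (95% interval -0.02 to 0.13, adjusted p = 0.18). It was called higher with totals set to 1000000 (0.15, adjusted p = 0.00047) and with edgeR on the recovered reads (0.10, adjusted p = 0.0093). Its direction was up in each of these settings, and only its call differed.

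**Figure D2:**
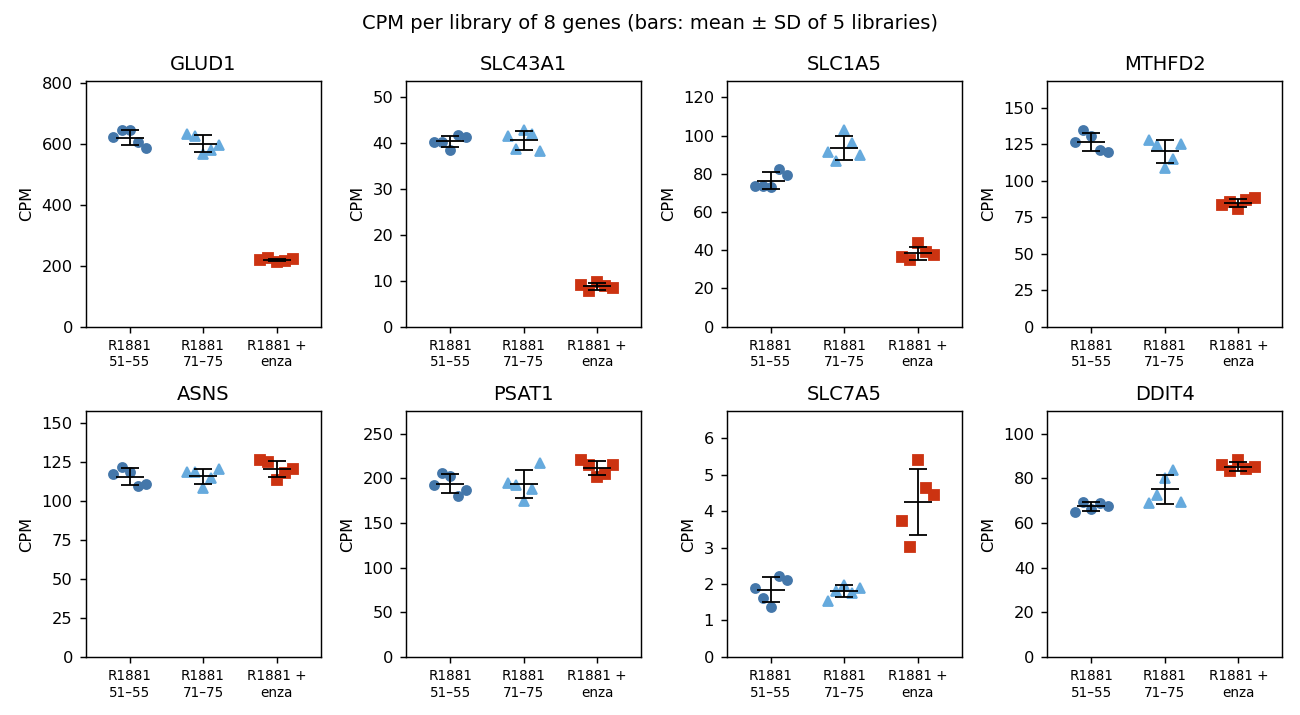
CPM in each library for 8 genes, with the mean and SD of the 5 libraries of each series drawn as bars and the axes starting at 0. GLUD1, SLC43A1, SLC1A5 and MTHFD2 are lower and SLC7A5 higher in each enzalutamide library than in any R1881 library, while ASNS, PSAT1 and DDIT4 overlap.

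Further enzymes of glutamine, glutamate, proline, arginine and branched-chain amino acids were mostly lower. Of 17 tested, 10 were lower, 4 higher and 3 not called (median -0.27). The shares were 58.8% lower and 23.5% higher, against 32.7% and 29.8% of all genes. PRODH, which starts proline breakdown, fell by 1.23 from 2.61 ± 0.493 CPM, and the alanine aminotransferase GPT2 fell by 0.64 from 142 ± 10.7 CPM. The glutaminase GLS2 rose by 0.93 (adjusted p = 6.87e-11), from 7.63 ± 0.560 to 14.96 ± 1.04 CPM. The argininosuccinate synthase ASS1 rose by 0.46, and the mitochondrial arginase ARG2 by 0.40.

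The heavy chain and the light chains of the heteromeric transporters did not move together. SLC3A2, the heavy chain that brings the light chains to the membrane, lay between 110 and 128 CPM with R1881 (median 117) and at 100.4, 108, 105, 99.2 and 104 CPM with enzalutamide. This was a small fall without overlap (-0.18, SE 0.04, adjusted p = 0.00016). SLC7A5 (LAT1, chr16:87830023-87869507), the light chain for leucine and other large neutral amino acids, was low with R1881. It had between 1.38 and 2.23 CPM (median 1.85), from 23 to 48 reads per library. With enzalutamide it had 3.03, 5.40, 3.73, 4.45 and 4.63 CPM, from 65 to 118 reads, and each library lay above all R1881 libraries. The rise was 1.02 (SE 0.11, adjusted p = 1.04e-07), rank 533 from the highest of 17046 genes. Per kilobase it was the second lowest of the 33 genes in both groups, at 0.400 ± 0.0575 and 0.932 ± 0.198 CPM per kb.

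SLC7A8 (LAT2), another light chain for neutral amino acids, was the more abundant of the pair and fell from 125 ± 6.14 to 96.1 ± 4.83 CPM (-0.37, adjusted p = 6.05e-08). The log2 ratio of SLC7A5 to SLC7A8 rose by 1.39, from -5.76 ± 0.13 to -4.37 ± 0.24. The ratio of SLC7A5 to SLC3A2 rose by 1.20. Both had no overlap (exact permutation test, p = 0.000333, adjusted 0.00080). SLC7A8 remained far above SLC7A5 with enzalutamide, at 22.7 ± 1.14 CPM per kb. SLC7A6, which exchanges basic for neutral amino acids, rose from 40.3 ± 2.44 to 47.0 ± 1.30 CPM without overlap (0.22, adjusted p = 0.00022). SLC7A11, the cystine importer, was at 93.9 ± 9.86 and 92.4 ± 8.31 CPM (-0.02, 95% interval -0.17 to 0.12, adjusted p = 0.82), and its ratio to SLC3A2 differed by 0.16 (exact permutation test, p = 0.14, adjusted 0.16).

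The other transporters fell, with one exception. SLC43A1 (LAT3, chr11:57484534-57515780, minus strand), a facilitated transporter of leucine and other branched-chain amino acids, had the largest change of the 33 genes. With R1881 it lay between 38.1 and 42.7 CPM (median 40.7), and with enzalutamide at 7.68, 9.58, 9.05, 8.49 and 8.82 CPM. The mean fell by 78.4% (-2.15, SE 0.05, adjusted p = 3.86e-19), rank 139 from the lowest. The difference was alike against both R1881 series, -2.15 and -2.16. Its paralog SLC43A2 (LAT4) was at 40.2 ± 5.25 and 41.3 ± 5.04 CPM, a difference of 0.04 (95% interval -0.14 to 0.21, adjusted p = 0.71). The log2 ratio of SLC43A1 to SLC43A2 fell from 0.01 ± 0.14 to -2.17 ± 0.09, without overlap (exact permutation test, p = 0.000333, adjusted 0.00080).

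SLC1A5 (ASCT2, chr19:46774883-46788594, minus strand), which brings glutamine into the cell in exchange for other neutral amino acids, lay between 72.8 and 103 CPM with R1881 (median 84.6). The enzalutamide libraries had 34.9, 43.5, 36.4, 37.6 and 38.97 CPM. All were below the R1881 libraries, and the mean fell by 54.9% (-1.13, SE 0.08, adjusted p = 3.10e-11). The R1881 series themselves did not overlap, with at most 82.6 CPM in libraries 51 to 55 and at least 86.6 CPM in libraries 71 to 75. The fall was 0.99 against the first and 1.28 against the second. SLC1A4 (ASCT1), which carries serine, alanine and cysteine, fell from 13.1 ± 1.39 to 9.13 ± 0.672 CPM (-0.49, adjusted p = 6.15e-06). SLC1A5 fell more than its paralog, as their log2 ratio dropped by 0.64 without overlap (exact permutation test, p = 0.000333, adjusted 0.00080).

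SLC38A2 (SNAT2), a sodium-coupled importer of glutamine, alanine and serine, had the highest level per kilobase of the transporters in the set. It lay between 425 and 521 CPM with R1881 (median 485) and at 360, 323, 340, 366 and 358 CPM with enzalutamide. The groups did not overlap (-0.46, SE 0.05, adjusted p = 1.98e-08). SLC38A1 (SNAT1), of the same family, fell from 264 ± 16.8 to 212 ± 12.3 CPM (-0.32, adjusted p = 5.27e-06). Their log2 ratio was the tightest of the 12, at 0.87 ± 0.02 with R1881 and 0.72 ± 0.02 with enzalutamide, and fell without overlap (exact permutation test, p = 0.000333, adjusted 0.00080). SLC7A1 (CAT1), an importer of arginine and lysine, fell from 134 ± 4.23 to 106 ± 3.91 CPM (-0.33, adjusted p = 1.34e-08).

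**Figure D3:**
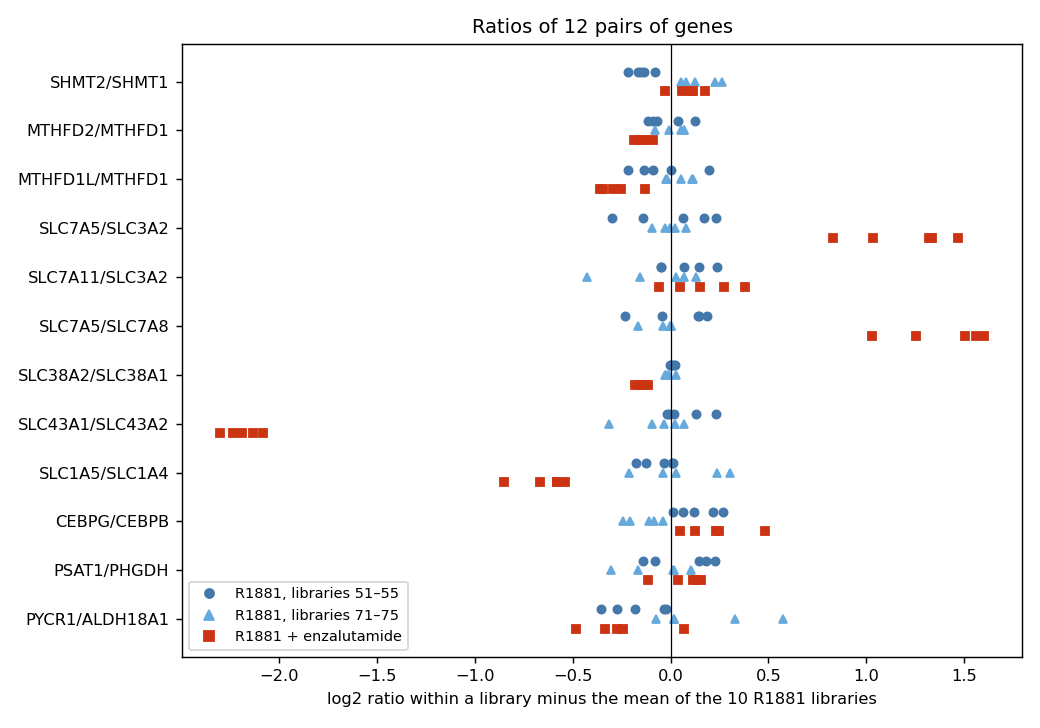
Log2 ratio of each of 12 pairs of genes within a library, minus the mean of the 10 R1881 libraries. SLC7A5 rises against SLC3A2 and SLC7A8 and SLC43A1 falls against SLC43A2 in every enzalutamide library, while SHMT2/SHMT1 and PSAT1/PHGDH overlap between the treatments.

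More of the transporters outside the set were higher than lower. Of 15 further amino acid transporters tested, 8 were higher, 3 lower and 4 not called (median 0.23). That is 53.3% higher and 20% lower, against 29.8% and 32.7% of all genes. SLC1A3 and SLC38A3, among the 8, were low, at 0.849 ± 0.193 and 0.402 ± 0.202 CPM with R1881. SLC38A9, a lysosomal arginine sensor, rose from 23.7 ± 1.50 to 60.3 ± 2.96 CPM (1.33, adjusted p = 1.48e-15). The cationic transporter SLC7A2 rose by 0.77, from 33.2 ± 3.10 CPM. SLC7A7, a light chain of SLC3A2 for basic amino acids, was at 0.304 ± 0.150 and 1.31 ± 0.359 CPM and rose by 1.17 (adjusted p = 3.10e-07). SLC38A4 was almost lost, with at least 89 reads in each R1881 library and at most 1 read in an enzalutamide library. SLC36A4 fell by 0.80 and the taurine transporter SLC6A6 by 0.41. The difference between these transporters and the 12 in the set was not tested.

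The regulators and targets of the amino acid response moved little and in both directions. CEBPG, the partner of ATF4, was at 65.9 ± 3.31 and 66.1 ± 2.93 CPM (0.01, 95% interval -0.08 to 0.09, adjusted p = 0.92). ATF5, a factor related to ATF4, was at 29.4 ± 2.98 and 28.4 ± 2.33 CPM (-0.05, -0.19 to 0.10, adjusted p = 0.58). DDIT4, an inhibitor of mTORC1, lay between 64.8 and 83.7 CPM with R1881 (median 69.2) and at 83.5, 88.1, 85.9, 85.0 and 84.1 CPM with enzalutamide. It rose by 0.26 (SE 0.05, adjusted p = 0.00015), with 1 R1881 library within the enzalutamide range.

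CEBPB and CHAC1 passed the threshold narrowly. The transcription factor gene CEBPB was at 7.97 ± 1.12 and 6.73 ± 0.589 CPM (-0.22, adjusted p = 0.040), but its R1881 series did not overlap each other. Its difference was -0.05 (adjusted p = 0.62) against libraries 51 to 55 and -0.39 against libraries 71 to 75. CHAC1, which breaks down glutathione, was at 4.80 ± 0.578 and 3.98 ± 0.862 CPM (-0.26, adjusted p = 0.041). Neither was called without the 3 libraries furthest from their groups (adjusted p = 0.073 and 0.053). The log2 ratio of CEBPG to CEBPB rose by 0.23 (exact permutation test, p = 0.030, adjusted 0.045) and by 0.09 against libraries 51 to 55 (exact permutation test, p = 0.43).

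**Figure D4:**
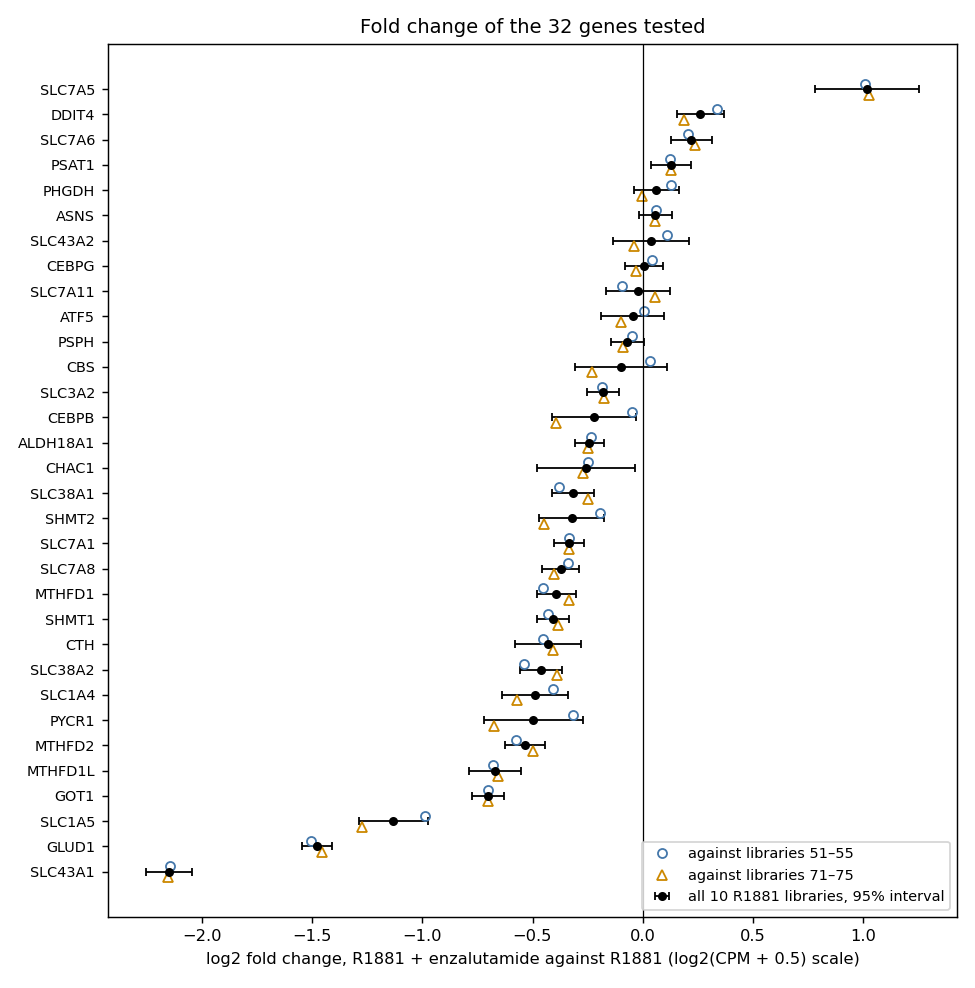
Log2 fold change of the 32 genes tested, R1881 + enzalutamide against R1881, with the 95% interval of the limma fit (filled points) and the value against each R1881 series (open symbols). The series give nearly the same value for SLC43A1, GOT1 and SLC7A5, and differ most for CEBPB and PYCR1.

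Of 16 further genes of the amino acid response, 7 were lower, 4 higher and 5 not called (median -0.07). These shares, 43.8% lower and 25% higher, lay near the 32.7% and 29.8% of all genes. ATF4 itself was at 349 ± 19.7 and 341 ± 14.1 CPM (-0.03, adjusted p = 0.47), although ATF4 is known to be controlled mainly at translation, which was not measured. Its target TRIB3 fell by 0.13 (adjusted p = 0.0078), a call lost with totals set to 1000000 (-0.03, adjusted p = 0.48), with edgeR (-0.08, adjusted p = 0.073) and against libraries 51 to 55 (adjusted p = 0.052). DDIT3, which encodes the stress factor CHOP, rose from 14.9 ± 1.15 to 25.5 ± 1.94 CPM (0.75, adjusted p = 9.68e-10). The mTORC1 inhibitor SESN2 rose by 0.50 and the secreted stress factor GDF15 by 0.90. The lipoprotein receptor VLDLR fell by 1.48 and the angiogenic factor VEGFA by 0.91, while EIF2AK4, the kinase that senses uncharged tRNA, fell by 0.24.

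The cytosolic aminoacyl-tRNA synthetases, which load amino acids onto tRNA, were mostly lower. Of 20 tested, 15 were lower, 2 higher and 3 not called (median -0.29). These shares were 75% lower and 10% higher, against 32.7% and 29.8% of all genes. The phenylalanine enzyme subunit FARSB fell by 0.66, from 171 ± 8.85 CPM, its partner subunit FARSA by 0.46, and the threonine enzyme gene TARS1 by 0.62, from 504 ± 20.2 CPM. The 2 that rose were the leucine enzyme gene LARS1, by 0.22, and EPRS1, for glutamate and proline, by 0.14. The asparagine enzyme gene NARS1 fell by 0.10 (adjusted p = 0.018), a call lost with totals set to 1000000, with edgeR and against libraries 71 to 75.

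Among 20 genes of amino acid sensing by mTORC1, 5 were lower, 4 higher and 11 not called (median -0.00087). The 45% called lay below the 62.5% of all genes. The kinase MTOR fell from 145 ± 5.87 to 71.4 ± 2.97 CPM (-1.01, adjusted p = 7.97e-16). The sestrins SESN1 and SESN3, of which SESN1 is a negative regulator of the pathway, rose by 1.34 (adjusted p = 2.26e-17) and 1.17 (adjusted p = 9.42e-15). SESN1 went from 214 ± 11.1 to 540 ± 22.3 CPM. DDIT4L, a relative of DDIT4, rose by 0.50, while the arginine sensor CASTOR1 fell by 0.51 and EIF4EBP1, a repressor of translation that mTORC1 switches off, by 0.41. DDIT4L and CASTOR1 were low, at 0.871 ± 0.266 and 1.17 ± 0.406 CPM with R1881, and the treatments overlapped for each.

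**Figure D5:**
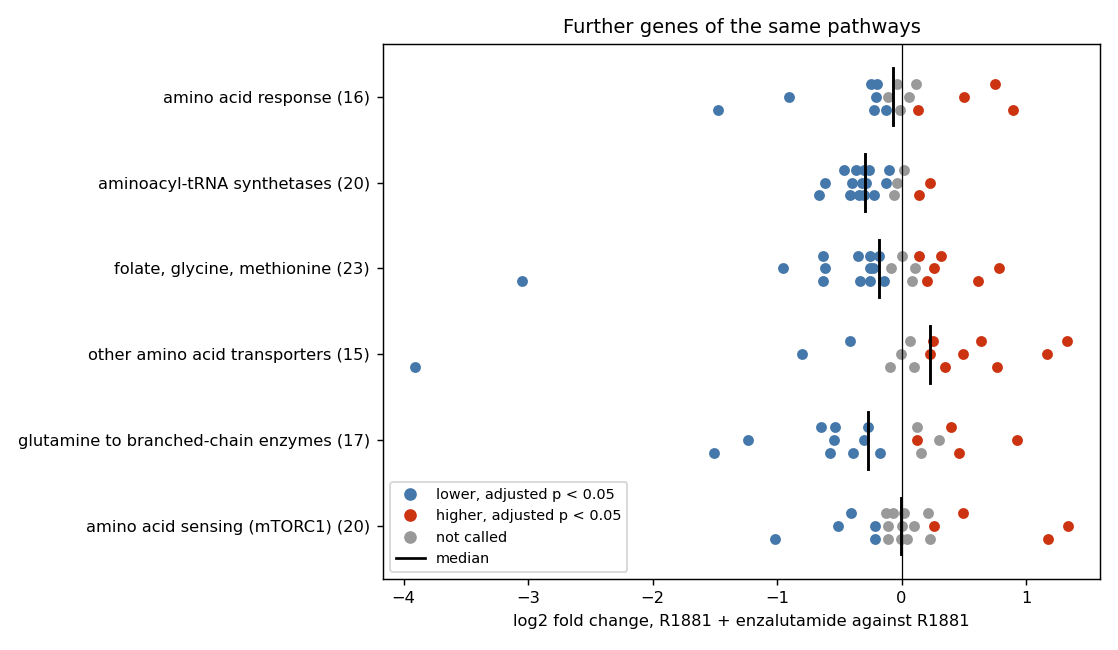
Log2 fold change of further genes in 6 lists of the same pathways, with the number tested in parentheses, coloured by the call at an adjusted p under 0.05, and the median as a vertical bar. The synthetases lie mainly left of 0 and the other amino acid transporters mainly right of it, with SLC38A4 furthest left.

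Within the 33 genes, the order of levels per kilobase of transcript changed at the top. With R1881, GLUD1 led, followed by PHGDH (133 ± 9.78 CPM per kb) and SHMT2 (128 ± 15.05), which did not differ beyond their spread. SLC38A2 (100.5 ± 6.69) and PSAT1 (87.8 ± 5.68) came next. With enzalutamide PHGDH led at 138 ± 6.96, followed by SHMT2 (102 ± 8.72), PSAT1 (95.8 ± 3.46), SLC38A2 (72.8 ± 3.68) and GLUD1. SLC43A1 went from 22nd to 28th and SLC1A5 from 16th to 22nd. The lowest 3 genes were SLC1A4, SLC7A5 and ALDH1L2 in both groups.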

How the data were processed

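RNA of LNCaP cells was analysed from 15 libraries, grouped by the sample titles (10 R1881, 5 R1881 + enzalutamide). The study's methods reverse these numbers, and the titles were followed. The authors used bcl2fastq 2.17, the aligner STAR on GRCh38 and featureCounts of Subread for single-end 50-base reads, and deposited a normalized signal that they call CPM. The libraries were made with a stranded kit. The sources used here do not give the use of strand in counting, the annotation, the gene filter or the scaling. Column totals were 985580 to 1078567. Divided by the step between values of a library, 100% came out whole within 0.01 reads, which gave back the read counts.

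Because the column totals were not 1000000, the values were treated as a normalized signal. The test planned for CPM, limma 3.58.1 (trend) on log2(CPM + 0.5) in R 4.3.3, was kept for genes with a mean of at least 0.5 CPM, with Benjamini-Hochberg adjustment over all 17046 genes at 0.05. Fold changes on this scale understate those of low genes. edgeR 4.0.16 and DESeq2 1.42.0 on the recovered reads were alternatives. The 12 pair ratios were tested with a two-sided exact permutation test and adjusted over the pairs. Scripts were tested on simulated data.

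The 33 members, the pairs and the further gene lists were chosen by hand with earlier results of these data known. All members are described. Of each further list the text names the called genes with the 3 highest and 3 lowest fold changes, with ATF4, DDIT3, TRIB3 and TYMS, and the androgen targets KLK2 and TMPRSS2. Another gene of this rule is not reported here. GOT2, CBSL, SLC25A32, SLC46A1, GCSH, SFXN1, MTHFD2L, SLC1A3 and SLC38A3 were named after their values were seen. Positions are from GENCODE v44 on GRCh38, and levels per kilobase use its canonical transcript. Promoters are from RefSeq on GRCh38.p14.

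Each of the 55 pairs of libraries within a treatment differed beyond sampling noise (lowest chi-square per degree of freedom 1.62), so each library counts once. Several members overlap another gene (ATF5, SHMT1, SHMT2, MTHFD1, SLC7A6, SLC1A5 and GLUD1 among them) or have pseudogene copies (PSAT1, PSPH, ASNS, MTHFD1, MTHFD2, SHMT1 and GLUD1), and their reads are uncertain to that extent. The number of libraries limits the precision, as does counting error for SLC7A5, CHAC1, CEBPB and ALDH1L2. Counting error also weighs on low genes of the further lists, such as AMT, DDIT4L and CASTOR1.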

Additional observations from a re-analysis of the deposited data

Results flagged for a closer look

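In 90 groups of values, for the 33 members and the 12 pair ratios in each treatment, the highest or lowest library was compared with its nearest neighbour (Dixon's criterion). In 2 groups a single library stood apart, where chance gives about 4.5, or 1 in 20. SLC3A2 was at 128 CPM in R1881 replicate 6, and the next highest R1881 library had 119 CPM. SLC7A8 was at 105 CPM in R1881 + enzalutamide replicate 2, and the next highest library of that group had 95.6 CPM. Both libraries are among the 3 that lay furthest from their groups over all genes. SLC3A2 and SLC7A8 were lower with enzalutamide without those 3 libraries too, by 0.18 and 0.39 on the log2 scale.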

How the results depend on the processing

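Of the 24 genes called, 22 kept their direction and their side of the threshold in each alternative in which they were tested, among them another pseudocount (0.1 and 1), other scalings, edgeR, DESeq2, each R1881 series alone, and each of the 15 libraries left out in turn. The exceptions were CEBPB and CHAC1. CEBPB lost its call without R1881 replicate 2, 3, 5, 6 or 8 or without R1881 + enzalutamide replicate 1, 4 or 5, with fold changes between -0.26 and -0.18 over all left-out libraries. CHAC1 lost it without R1881 replicate 1, 2, 4, 5, 6, 8 or 10 or without R1881 + enzalutamide replicate 1, 4 or 5 (-0.35 to -0.18). The number of members lower was 18 to 20 and the number higher 4 with 1 library left out. Without the 3 libraries furthest from their groups, an alternative added after the data were seen, 18 were lower and 4 higher. At least 2-fold changes were found for 3 members lower and 1 higher, and for 714 and 556 of all genes. With totals set to 1000000, 7 members were higher, with PHGDH (0.16), ASNS (0.15) and CEBPG (0.10) added, and PSPH was at 0.02. With no filter on low values ALDH1L2 was added.

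The ratio of CEBPG to CEBPB was not called against libraries 51 to 55 (0.090) or without the 3 libraries (0.20). It lost its call without R1881 replicate 1, 2, 3, 5, 6, 8 or 9 or R1881 + enzalutamide replicate 1, 2, 4 or 5, with values from 0.16 to 0.27. The ratio of SHMT2 to SHMT1 passed the threshold against libraries 51 to 55 (0.23), and that of PYCR1 to ALDH18A1 against libraries 71 to 75 (-0.43) and without the 3 libraries (-0.22). The cause was not tested. Samples of the 2 treatments that share a replicate number in their titles did not deviate together (correlations from -0.07 to 0.07), so these numbers do not pair them. By the last digit of the library number the correlations were uneven, from -0.42 (53 with 83) to 0.47 (52 with 82) and 0.67 (73 with 83), so that this digit does not pair them throughout either. A replicate block by the title number gave 19 members lower and 4 higher, and a block by the last digit of the library number 18 and 4. Over all genes, 10043 and 10720 were called with these blocks.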
